A study of Mus musculus with 6 samples.

Results

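The Hox genes of the mouse lie in 4 clusters, *Hoxa* to *Hoxd*, and carry paralog numbers from 1 to 13 that follow their order along each cluster. They were taken here as every gene whose array probe set was annotated to exactly 1 symbol made of *Hoxa*, *Hoxb*, *Hoxc* or *Hoxd* and a number. This gave 37 Hox genes among 19938 genes in all, each with 1 probe set. The clusters contributed 10 genes from *Hoxa* and 9 from each of *Hoxb*, *Hoxc* and *Hoxd*. *Hoxb8* had no probe set of its own and shared 1 with *Hoxb7*, which read 4.04, 4.11 and 4.24 in the WT lungs and 4.32, 4.05 and 4.27 in the *Tnrc6a* null lungs.

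The values come from whole lungs of 6 C57Bl/6 mouse embryos at E18.5, 3 wild type (WT) and 3 labelled as mutants of *Tnrc6a*, also called GW182. The mutants were homozygous for a gene trap that places β-galactosidase within *Tnrc6a* and is carried by every cell of the embryo. The study names WT littermates as its comparison for the gross form of null embryos at E18.5. The sample titles do not say whether the lungs on these arrays came from littermates. Each lung came from a single embryo and was hybridised to its own Affymetrix whole-transcript array. A value is the deposited processed signal of 1 probe set on a log scale, and a difference is *Tnrc6a* null minus WT on that scale. The labels name base 2, which the values do not settle, so no fold is given. Probe sets differ in how strongly they respond, so a signal describes its own probe set and does not order RNA levels between genes.

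Hox genes encode homeodomain transcription factors that give positional identity along the body axis. Genes of low paralog number are expressed from more anterior levels, genes of high number towards the tail, the limb ends and the urogenital tract. In the lung, the mesenchyme is known to express genes of the middle and lower numbers, and *Hoxa5* is required there for the morphogenesis of trachea and lung. TNRC6A is a scaffold protein that binds Argonaute proteins loaded with microRNAs and brings in the enzymes that shorten and decay the target mRNA. The comparison of genotypes therefore asks whether Hox mRNA differed in lungs with a disrupted *Tnrc6a* gene.

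The Hox clusters also hold 6 microRNA genes, and their mature strands are shown because these RNAs guide the complex in which TNRC6A works. The seed, bases 2 to 8 from the 5′ end, pairs with target mRNAs and is in capitals. The sequences are those of RefSeq on GRCm38.p6. The first pair shares a seed.
miR-10a-5p: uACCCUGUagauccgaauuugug
miR-10b-5p: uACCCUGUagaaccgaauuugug
The next pair shares another seed, and miR-196a is made from 2 genes with the same mature sequence.
miR-196a-5p: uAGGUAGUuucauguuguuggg
miR-196b-5p: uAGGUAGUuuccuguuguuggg
The last has a seed of its own.
miR-615-3p: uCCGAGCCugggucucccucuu

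Within each pair the sequences differed at 1 position, U12A from miR-10a-5p to miR-10b-5p and A12C from miR-196a-5p to miR-196b-5p, counted from the 5′ end and outside the seed. miR-10a-5p lies at chr11:96317186-96317208 on the plus strand, within the annotated span of *Hoxb3* and between *Hoxb5* and *Hoxb4*. miR-10b-5p lies at chr2:74726074-74726096 on the plus strand, within the spans of *Hoxd3* and *Hoxd4*. The miR-196a-5p copies lie at chr11:96265187-96265208, between *Hoxb13* and *Hoxb9*, and at chr15:102973365-102973386, between *Hoxc10* and *Hoxc9*, both on the plus strand. miR-196b-5p lies at chr6:52230129-52230150 on the minus strand, between *Hoxa9* and *Hoxa10*. miR-615-3p lies at chr15:103014969-103014990 on the plus strand, within the span of *Hoxc5*. Members of the miR-196 family are known to direct cleavage of *Hoxb8* mRNA. Whether any Hox mRNA on these arrays carries a site for these seeds was not examined, because no transcript sequences were used.

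The targeted gene matched the labels. *Tnrc6a* read 7.38, 7.13 and 7.18 in the WT lungs and 5.45, 5.04 and 5.40 in the null lungs, and it was the only gene of all 19938 past an adjusted p of 0.05 in limma (adjusted p = 0.00312, and 0.0552 without WT replicate 3). Lung markers were present in every lung, among them *Sftpc* of alveolar epithelium (11.64 to 11.82), *Cdh5* of endothelium (9.92 to 10.25) and *Tcf21* of lung mesenchyme (9.35 to 9.75). Of the 6 listed cardiac genes, *Nppa* was the dimmest at 3.96 to 4.30 and *Actc1* the brightest at 8.54 to 9.13. The neural crest gene *Sox10* read 4.71 to 5.03, and *Stmn2*, the brightest of the 5 measured in its list, 6.03 to 6.94. WT replicate 1 and null replicate 3 were more alike than either was to a lung of its own genotype, with a correlation of 0.992 across genes (lowest pair 0.979, highest 0.993), so the changes that leaving out these 2 lungs made to the Hox differences are given below. Nothing says that the lungs came from separate litters, and p-values measure the spread between these embryos and arrays.

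No Hox gene passed a test of the difference between the genotypes. In limma 0 of 37 passed an adjusted p of 0.05, a threshold that 0.00502% of all genes passed, and 0 of 37 lay at an unadjusted p under 0.05, against 5.42% of all genes. For 1 of 37, *Hoxc12*, all null lungs lay on the same side of all WT lungs, as they did for 10.2% of all genes. Without 1 lung this held for 1 to 7 Hox genes, and for 15.9% to 26.7% of all genes. Of the 37 differences 16 were above 0, 20 below 0 and 1, that of *Hoxc6*, was 0. They ran from -0.27 for *Hoxc12* to 0.25 for *Hoxa13*, with a median of -0.01 beside a median of 0.00 over all genes. The difference was smaller than its standard error in 30 Hox genes and larger in 7, or 18.9%, whereas it was larger in 37.2% of all genes.

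**Figure D1:**
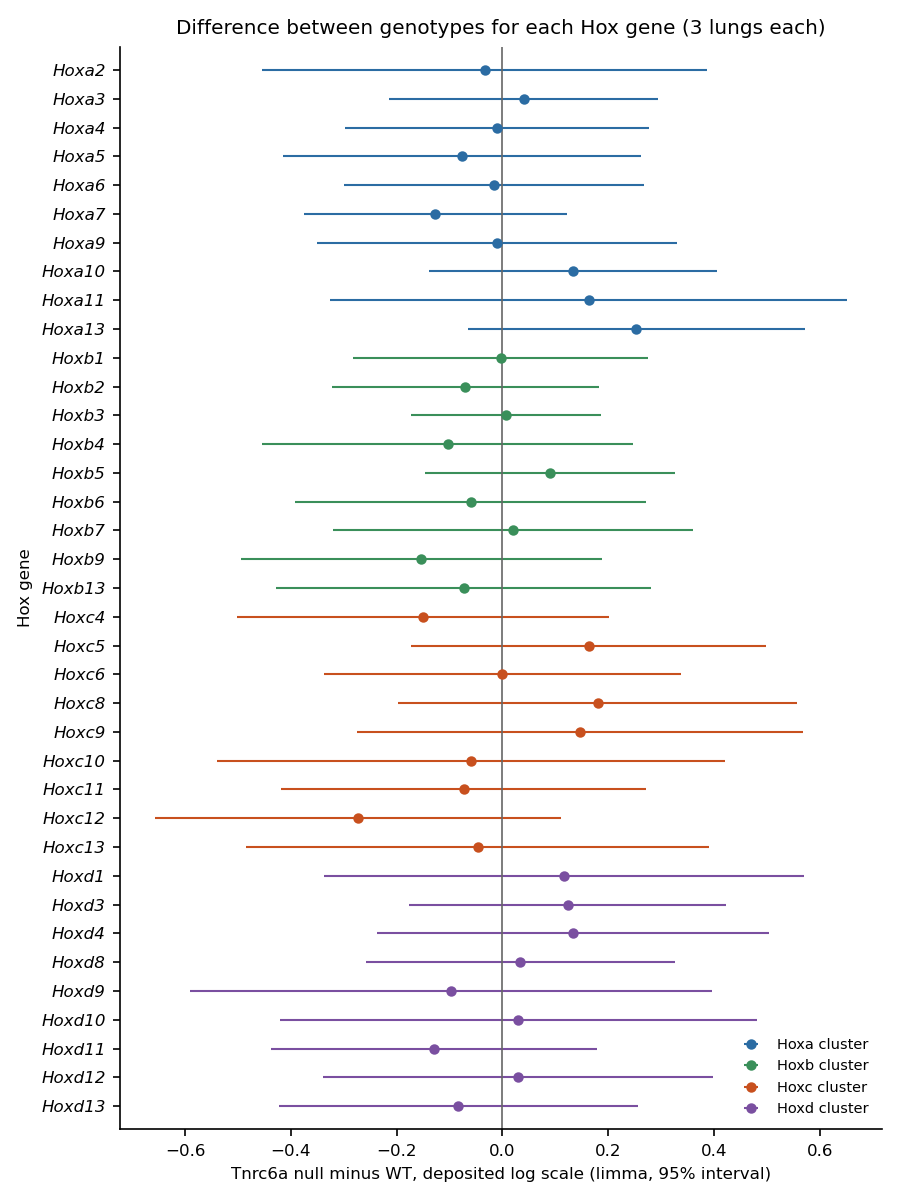
Difference between genotypes for 37 Hox genes, *Tnrc6a* null minus WT on the deposited log scale (x axis), with genes listed by cluster and paralog number (y axis). Points are limma estimates from 3 lungs of each genotype and bars are 95% intervals. Every interval includes 0, and that of *Hoxc12*, from -0.66 to 0.11, reaches furthest from it.

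The intervals give the size of difference that these lungs leave room for. The 95% interval stayed within 0.5 of 0 for 27 Hox genes and passed 0.5 on at least 1 side for 10. It was narrowest for *Hoxb3*, from -0.17 to 0.19, and standard errors ran from 0.079 for *Hoxb3* to 0.217 for *Hoxd9*. The 10 genes whose intervals take in a difference of 0.5 were *Hoxa11* and *Hoxa13*, *Hoxc4*, *Hoxc8*, *Hoxc9*, *Hoxc10* and *Hoxc12*, and *Hoxd1*, *Hoxd4* and *Hoxd9*, of which 6 carry paralog numbers of 9 or more.

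The clusters differed in the signals of their probe sets. In *Hoxa* the mean signal over the 6 lungs ran from 3.58 to 7.48 and in *Hoxb* from 4.15 to 6.65. In *Hoxc* it ran from 3.05 to 4.21 and in *Hoxd* from 3.77 to 4.38. The median mean signal over all genes was 5.43, and the 8 Hox genes above it were *Hoxa2*, *Hoxa4*, *Hoxa5* and *Hoxa6* and *Hoxb2*, *Hoxb3*, *Hoxb4* and *Hoxb5*. All 8 have paralog numbers from 2 to 6. No probe set of *Hoxc* or *Hoxd*, and none of the 16 of paralogs 9 to 13, lay above that median. When all genes were put in 10 equal groups by signal, 23 of the 37 stood in the dimmest 3 groups. Without scanner data the signal over background was not measured, so a low value does not say whether the gene was expressed.

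**Figure D2:**
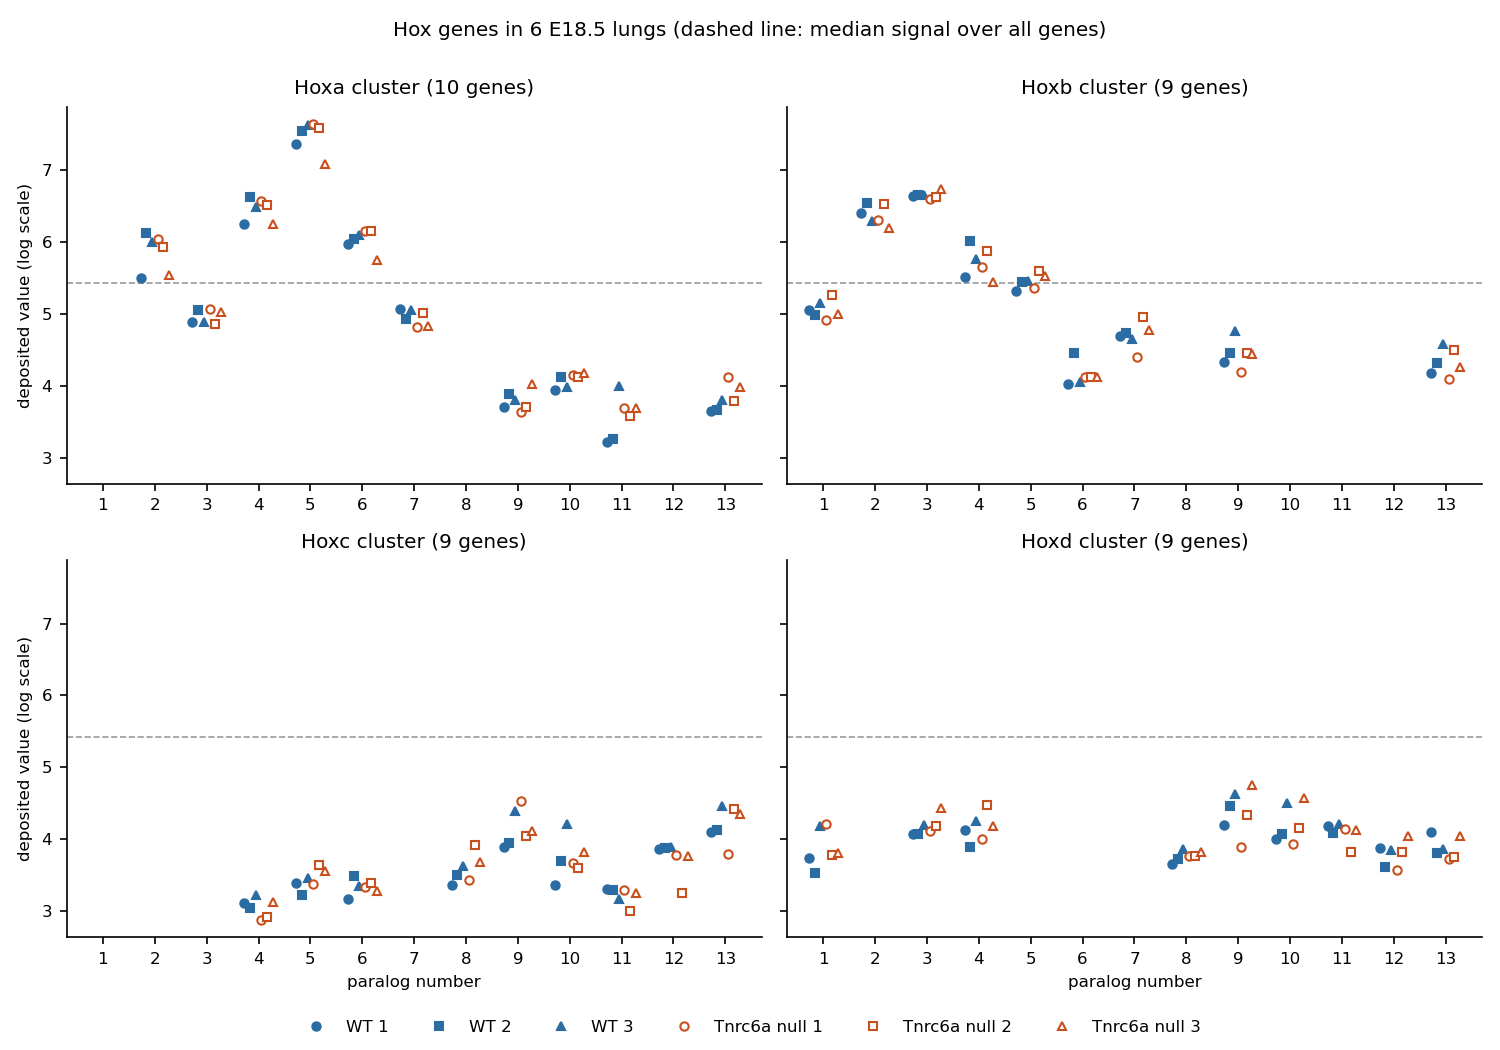
Deposited log-scale value (y axis) of each Hox gene in each lung by paralog number (x axis), with 1 panel per cluster, filled blue symbols for WT and open orange symbols for *Tnrc6a* null lungs. The dashed line is the median signal over all genes, 5.43, which 8 probe sets of *Hoxa* and *Hoxb* exceed and none of *Hoxc* or *Hoxd*.

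Paralogs of number 5 are the Hox genes best known for a role in the lung. *Hoxa5* directs the lung and trachea from the mesenchyme. It read 7.37, 7.54 and 7.63 in the WT lungs and 7.64, 7.59 and 7.08 in the null lungs. The genotypes overlapped over most of their range, and null replicate 3 was the lowest of all 6. The difference was -0.08 with a standard error of 0.149 and a 95% interval of -0.41 to 0.26 (adjusted p = 0.959 in limma). Its sign rested on null replicate 3, since it was 0.10 without that lung but -0.15 without WT replicate 1. Without both it was 0.03, with an interval of -0.12 to 0.18. In bulk tissue fewer cells of a type and less RNA per cell cannot be told apart.

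*Hoxb5*, which is known from airway branching, read 5.32, 5.44 and 5.46 in the WT lungs and 5.36, 5.60 and 5.53 in the null lungs. Both the highest and the second highest value were null, but null replicate 1 lay below 2 of the WT lungs. The difference was 0.09 with an interval of -0.15 to 0.33. *Hoxc5* read 3.39, 3.23 and 3.47 in WT and 3.38, 3.64 and 3.56 in null lungs. Here too null replicates 2 and 3 were the highest and null replicate 1 sat among the WT lungs, and the difference was 0.16 with an interval of -0.17 to 0.50.

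*Hoxc12*, a gene of posterior body levels, was the only member whose genotypes did not overlap. It read 3.86, 3.88 and 3.89 in the WT lungs and 3.78, 3.26 and 3.77 in the null lungs. Most of the difference of -0.27 came from null replicate 2, and without that lung it was -0.10. The other null lungs lay just below the WT lungs. In limma its standard error was 0.169, the unadjusted p was 0.141 and the adjusted p was 0.896.

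*Hoxa13*, which patterns the limb ends and the genital tubercle, had the smallest p among the members. Its values were 3.65, 3.67 and 3.81 in WT and 4.12, 3.79 and 3.98 in null lungs. WT replicate 3 lay above null replicate 2, so the genotypes overlapped by 1 lung on each side. The difference was 0.25 with a standard error of 0.140, an interval of -0.07 to 0.57 and, in limma, an unadjusted p of 0.105 and an adjusted p of 0.890.

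The other members with the smallest p-values differed less. *Hoxa7*, a trunk gene, read 5.07, 4.93 and 5.05 in WT and 4.82, 5.02 and 4.83 in null lungs, a difference of -0.13 in which null replicate 2 stayed inside the WT range. *Hoxa10*, needed in the uterus and the lumbar vertebrae, read 3.94, 4.13 and 3.99 in WT and 4.15, 4.13 and 4.18 in null lungs. The null lungs were closely spaced at the upper end, WT replicate 2 matched the lowest of them, and the difference was 0.13. *Hoxc8*, a gene of the thoracic axis, read 3.36, 3.51 and 3.63 in WT and 3.44, 3.92 and 3.68 in null lungs, a difference of 0.18. *Hoxc4*, active at cervical levels, read 3.12, 3.04 and 3.22 in WT and 2.88, 2.92 and 3.13 in null lungs, a difference of -0.15. In both genes 1 null lung fell inside the WT range.

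*Hoxb9*, a thoracic gene, read 4.33, 4.46 and 4.77 in WT and 4.19, 4.46 and 4.45 in null lungs. The difference of -0.15 rested largely on WT replicate 3, which stood above all others. *Hoxd11*, which patterns the forearm together with *Hoxa11*, read 4.19, 4.09 and 4.22 in WT and 4.15, 3.83 and 4.13 in null lungs, and only null replicate 2 lay outside the WT range. *Hoxd3*, needed for the first neck vertebrae, read 4.08, 4.08 and 4.20 in WT and 4.11, 4.19 and 4.43 in null lungs, with null replicate 3 alone above WT. The differences of these last genes were -0.13 and 0.12. From *Hoxa7* to *Hoxd3* the unadjusted p in limma ran from 0.278 to 0.374.

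The remaining members complete the clusters. In *Hoxa* the differences were -0.03 for *Hoxa2*, 0.04 for *Hoxa3*, -0.01 for each of *Hoxa4* and *Hoxa9*, -0.02 for *Hoxa6* and 0.16 for *Hoxa11*. For *Hoxa11* WT replicate 3 stood above every other lung, the other WT lungs read 3.22 and 3.26, and the null lungs lay between them, from 3.58 to 3.70. Without WT replicate 3 the unadjusted p of *Hoxa11* was 0.0305 in limma, where 3.35% of all genes lay under 0.05. In *Hoxb* they were -0.07 for *Hoxb2*, 0.01 for *Hoxb3*, -0.10 for *Hoxb4*, -0.06 for *Hoxb6*, 0.02 for *Hoxb7* and -0.07 for *Hoxb13*, and *Hoxb1* stood at -0.0033. *Hoxb3* was the steadiest member, at 6.64, 6.66 and 6.65 in WT and 6.60, 6.63 and 6.74 in null lungs.

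In *Hoxc* the differences were 0.15 for *Hoxc9*, -0.06 for *Hoxc10*, -0.07 for *Hoxc11* and -0.05 for *Hoxc13*. In *Hoxd* they were 0.12 for *Hoxd1*, 0.13 for *Hoxd4*, 0.03 for each of *Hoxd8*, *Hoxd10* and *Hoxd12*, -0.10 for *Hoxd9* and -0.08 for *Hoxd13*. None of these exceeded its standard error. *Hoxd9* varied most, from 3.90 to 4.76 within the null lungs alone, and without WT replicate 1 and null replicate 3 its difference was -0.43. In limma the unadjusted p of *Hoxd9* was then 0.0457, the only Hox value under 0.05, where 14.5% of all genes lay under 0.05.

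By cluster the median difference was -0.01 in *Hoxa* (4 above 0 and 6 below), -0.06 in *Hoxb* (3 and 6), -0.05 in *Hoxc* (3 and 5) and 0.03 in *Hoxd* (6 and 3). Without WT replicate 1 and null replicate 3 the direction of *Hoxd* turned, to a median of -0.035 with 3 above 0 and 6 below, while the medians of *Hoxa*, *Hoxb* and *Hoxc* were -0.0025, -0.04 and -0.08. By paralog number it was -0.0033 over the 11 genes numbered 1 to 4, 0.01 over the 10 numbered 5 to 8 and -0.05 over the 16 numbered 9 to 13. No cluster or paralog range stood out from the others by its count of higher and lower genes, and none of these medians was tested. Within single paralog numbers, all 3 genes of number 3 were slightly above 0, at 0.01 to 0.12, and both of number 8 were at 0.03 and 0.18. Both genes of number 2 were below 0, at -0.07 and -0.03. Of these genes *Hoxc8* alone differed by more than its standard error.

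Single members moved more than the cluster medians when those lungs were left out. Over all 37 genes 13 differences were then above 0 and 23 below. *Hoxa9*, *Hoxc10*, *Hoxd9* and *Hoxd10* moved by more than their standard error, to -0.175, -0.32, -0.43 and -0.24. *Hoxb9* moved to -0.29 and *Hoxd3* to 0.01. *Hoxa5* and *Hoxa6* turned from below to above 0, with *Hoxa6* at 0.09, as did *Hoxb1* at 0.02. *Hoxa3*, *Hoxb3*, *Hoxb7*, *Hoxd8*, *Hoxd10* and *Hoxd12* turned from above to below 0. The genotypes did not overlap in 8 genes, as in 43.6% of all genes, with *Hoxa6* higher in the null lungs and *Hoxa9*, *Hoxb3*, *Hoxc4*, *Hoxc10*, *Hoxc12*, *Hoxd9* and *Hoxd13* lower.

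The difference moved with signal over all genes. Over 10 equal groups of genes by signal, the median difference was 0.153 in the dimmest group and -0.063 in the brightest. The Hox genes sit mostly among dim genes, and the median of these group values over the members was 0.063, beside the Hox median of -0.01. The part of the signal in these small differences was not tested.

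**Figure D3:**
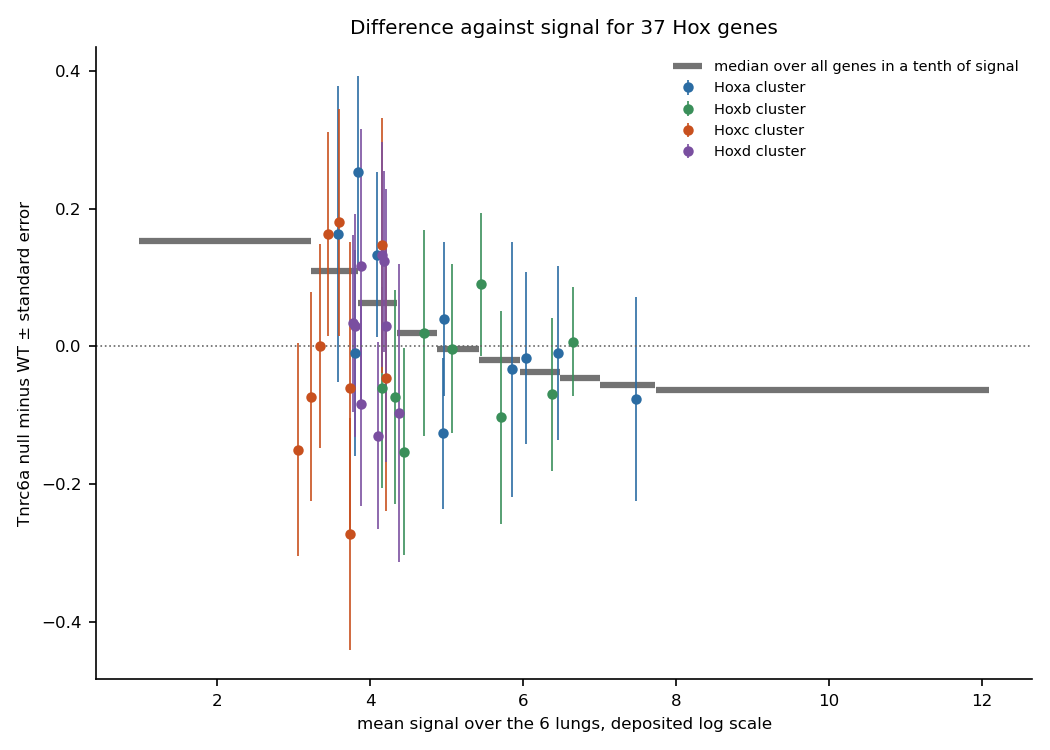
Difference, *Tnrc6a* null minus WT (y axis), against the mean signal over the 6 lungs (x axis), both on the deposited log scale, for 37 Hox genes coloured by cluster with bars of 1 standard error. Grey bars give the median difference of all genes in 10 equal groups by signal, which runs from 0.153 to -0.063, and most Hox genes lie within their standard error of 0.

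Several Hox genes shared the lungs in which they were low. *Hoxa2*, a gene of the hindbrain and the second pharyngeal arch, read 5.50, 6.12 and 6.00 in WT and 6.05, 5.93 and 5.54 in null lungs. *Hoxa4* read 6.25, 6.63 and 6.49 in WT and 6.57, 6.52 and 6.25 in null lungs. In both genes WT replicate 1 and null replicate 3 were the lowest of the 6, and the other lungs of the 2 genotypes lay together. The same pair was lowest in *Hoxa5* above, in *Hoxa6* (5.98 and 5.75, with the others from 6.04 to 6.16), in *Hoxb4* (5.51 and 5.45, with the others from 5.66 to 6.02) and in *Hoxc6* (3.17 and 3.28, with the others from 3.34 to 3.49).

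This made 6 of 37 Hox genes, 16.2%, against 23.2% of all genes. Of the 8 Hox genes above the median signal it was 5, or 62.5%, against 23.4% of all genes above that median. The annotated spans of these 5 do not overlap each other. *Hoxa4*, *Hoxa5* and *Hoxa6* overlap that of *Hoxa3*, and *Hoxb4* that of *Hoxb3*, and neither *Hoxa3* nor *Hoxb3* shared the pattern. The count was made after the values had been seen and was not tested.

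The mean of the 8 Hox genes, relative to the mean of the 6 lungs, was -0.129, 0.122 and 0.047 in the WT lungs and 0.042, 0.102 and -0.184 in the null lungs. All genes above the median signal stood at -0.0095, 0.043 and 0.035 in WT and -0.0086, -0.0091 and -0.0505 in null lungs, so the 8 lay further below in the same 2 lungs. Marker lists moved with them. The 7 measured of 8 leukocyte genes stood at -0.253, 0.140 and 0.288 in WT and at 0.117, 0.051 and -0.342 in null lungs. All 6 mesothelium genes gave -0.136, 0.058 and 0.159 against 0.046, 0.089 and -0.217. The 10 endothelium genes gave -0.0395, 0.1435 and 0.1465 against -0.0495, -0.0245 and -0.1765. In these lists the lowest lung of each genotype was the same as for the 8 Hox genes, as it was for the lists of lung epithelium, neurons with neural crest, and cardiomyocytes, though for cardiomyocytes WT replicates 1 and 2 were close. The lowest lungs were also the same for the 3 measured of 7 erythroid genes, at -0.406, 0.064 and 0.201 in WT. Their null lungs stood close together, at 0.057, 0.044 and 0.041. In all 10 endothelium genes the difference was below 0, with a median of -0.19. In limma 4 of them, or 40.0%, lay at an unadjusted p under 0.05, against 6.76% of all genes above the median signal. Mesenchyme and smooth muscle genes were below 0 in 13 of 16 (median -0.12) and above 0 in 3, with 18.75% under 0.05. Proliferation genes were above 0 in 12 of 12 (median 0.25), with 16.7% under 0.05. None of these genes passed an adjusted p of 0.05.

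The 12 measured of 13 proliferation genes ran the other way, at 0.211, -0.282 and -0.302 in WT and 0.168, -0.173 and 0.379 in null lungs. The 16 mesenchyme and smooth muscle genes stood at 0.057, 0.030 and 0.085 in WT and -0.013, -0.049 and -0.110 in null lungs. In this list null replicate 3 was the lowest lung, and WT replicate 2 was the lowest WT lung. No marker gene measured was listed at 0 in any lung, and the part of these cell types in the Hox values was not tested. Without the 2 lungs the 8 Hox genes had a median difference of -0.0075, with 3 above 0 and 4 below, and all 37 had a median of -0.035 beside -0.02 over all genes.

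**Figure D4:**
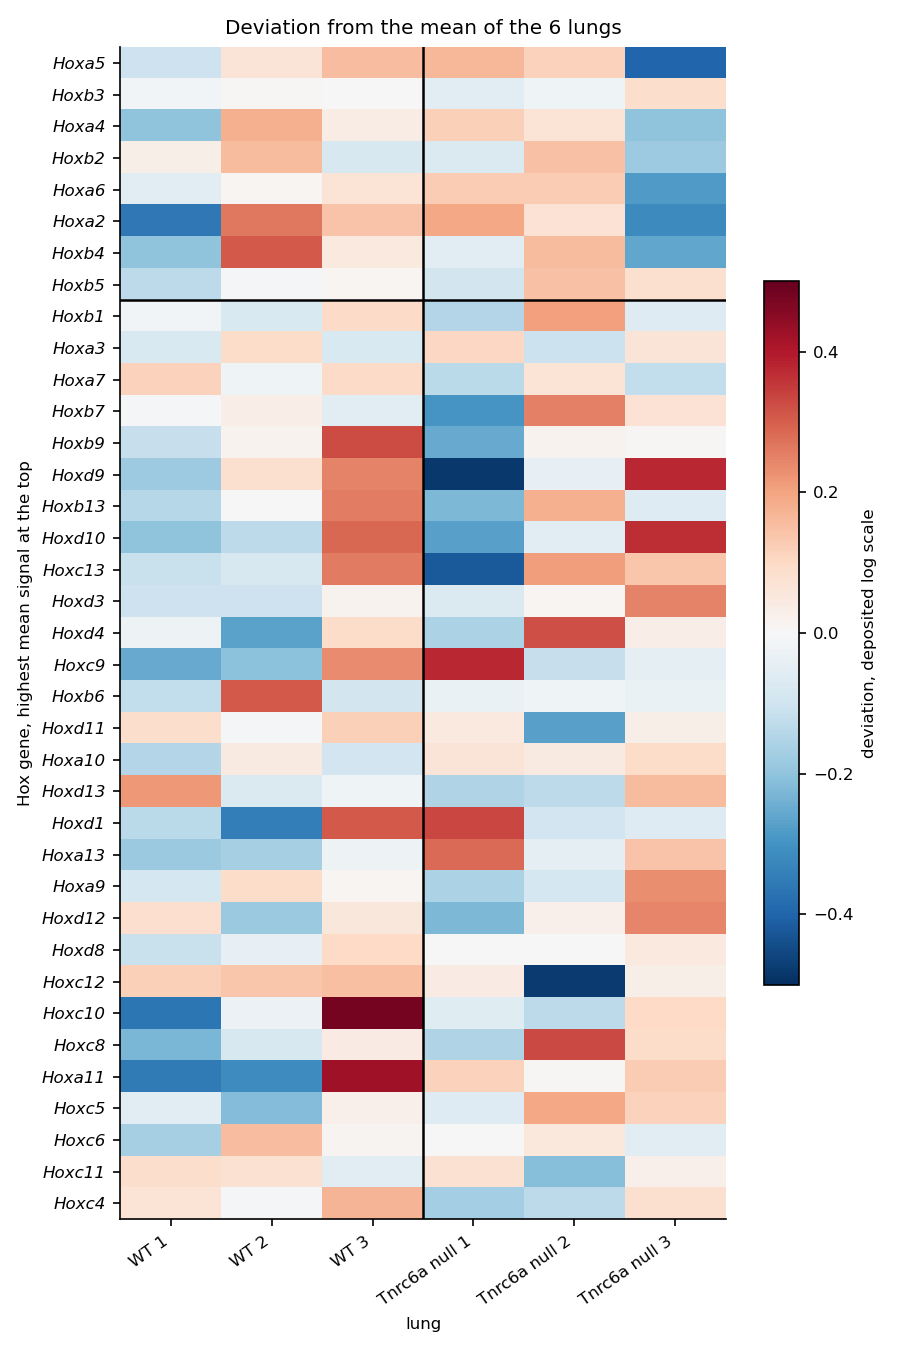
Deviation of each Hox gene from its mean over the 6 lungs, on the deposited log scale (colour), by lung (columns, WT left of the line) and gene (rows, highest signal at the top, with a line below the 8 genes above the median signal). Among those 8 genes WT replicate 1 and null replicate 3 are mostly blue, with means of -0.129 and -0.184, whereas the dimmer rows below have null replicate 1 and WT replicate 1 lowest most often.

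The dim Hox genes had another pattern. Among the 29 below the median signal, null replicate 1 was the lowest lung in 12, or 41.4%, against 17.0% of all genes below the median, and WT replicate 1 in 9, or 31.0%, against 38.8%. WT replicate 3 was the highest in 9, also 31.0%, against 18.6%. Null replicate 3 and WT replicate 3 were each the lowest in 0 of the 29, against 12.7% and 8.45% of all genes below the median. For the 16 genes of paralogs 9 to 13, all among these 29, null replicate 1 was lowest in 8 and WT replicate 3 highest in 7. *Hoxa9*, *Hoxd9*, *Hoxd10* and *Hoxd12* had null replicate 1 lowest but null replicate 3 highest. Of these, *Hoxd10* read 4.01, 4.08 and 4.50 in WT and 3.94, 4.16 and 4.58 in null lungs. *Hoxd10* and *Hoxd11* overlap in the annotation, and *Hoxd11* had null replicate 2 lowest. These counts are descriptions made after the values had been seen.

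The genes that work with Hox proteins or control their clusters were counted from 8 lists. Of 122 measured genes 4 lay at an unadjusted p under 0.05, or 3.28%, against 5.42% of all genes, 1 higher and 3 lower in the null lungs, and 0 passed an adjusted p of 0.05. The count was 2 without WT replicate 2, and 13, or 10.7%, without the 2 lungs that were alike, where 14.5% of all genes lay under 0.05. With each array centred on its median it was 11, or 9.02%, and the share over all genes was then the lower, at 6.92%. Of the differences 40 were above 0 and 80 below, with a median of -0.04. Most of these genes are bright, and over them the median of the group values by signal was -0.047. The genotypes did not overlap in 17 of the 122, as in 10.2% of all genes and 12.2% of those above the median signal.

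TALE homeodomain proteins bind DNA together with Hox proteins. Their list held 10 measured genes, of which 2, or 20.0%, lay under 0.05, against 5.42% of all genes. *Pbx2*, a direct Hox partner, read 7.76, 7.52 and 7.39 in WT and 7.05, 7.09 and 7.49 in null lungs. Null replicate 3 reached into the WT range, and the difference was -0.35 (unadjusted p = 0.0348 in limma, adjusted p = 0.890). *Tgif2*, a TALE repressor, read 5.96, 6.15 and 6.06 in WT and 6.28, 6.27 and 6.26 in null lungs, without overlap, a difference of 0.21 (unadjusted p = 0.0373 in limma, adjusted p = 0.890). Its relative *Tgif1* differed by 0.14 and likewise did not overlap, at an unadjusted p of 0.0886 in limma. The other partners stood closer to 0, with *Meis1* at -0.09 and *Pbx3* at -0.06.

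Chromatin regulators hold Hox clusters active or silent. Of 16 genes on the MLL and Trithorax side, which keep Hox genes active, 1 lay under 0.05, or 6.25%, near the 5.42% of all genes. *Aff1*, a subunit of the elongation complexes that MLL fusions recruit, read 7.69, 7.78 and 7.72 in WT and 7.49, 7.68 and 7.36 in null lungs. All null lungs were below WT, a difference of -0.22 (unadjusted p = 0.0451 in limma, adjusted p = 0.890). *Rbbp5*, a core subunit of the MLL complexes, differed by 0.20 and *Kdm6b*, a demethylase of the Polycomb mark, by -0.16, both without overlap. Among 29 measured of 31 Polycomb genes, which silence Hox clusters, 0 lay under 0.05, and the smallest p belonged to *Yaf2* (-0.18), *Rybp* (-0.33) and *Rnf2* (-0.18), all subunits of the complex that ubiquitinates histone H2A. The methyltransferase *Ezh2* differed by 0.08.

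Retinoic acid switches on Hox genes in sequence in the embryo. None of the 19 measured of 20 genes of its synthesis, breakdown and receptors lay under 0.05, and 15 were below 0. Of the 19, 13 lay above the median signal, where 6518 of 9967 genes were below 0. The list's median difference was -0.08, beside -0.037 for the group values by signal. The receptors *Rara* and *Rxra* differed by -0.16 and -0.18, and *Aldh1a2*, the main embryonic enzyme of synthesis, by -0.20. Of 17 genes that pattern the lung and its mesenchyme 1 lay under 0.05, or 5.88%, near the 5.42% of all genes. *Tcf21*, a mesenchymal transcription factor, read 9.75, 9.62 and 9.62 in WT and 9.45, 9.54 and 9.35 in null lungs, without overlap, a difference of -0.22 (unadjusted p = 0.0231 in limma, adjusted p = 0.890). *Tbx4*, a lung mesenchyme factor, and *Wnt2b*, an early lung signal, differed by -0.15 and 0.25. Null replicate 3 was the lowest lung for both *Tcf21* and *Hoxa5*, and WT replicate 1 was the highest for *Tcf21* and the second lowest for *Hoxa5*. The relation of these genes was not tested.

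Other homeobox genes close to the Hox family gave 0 of 15 under 0.05. The caudal gene *Cdx1*, an upstream regulator of Hox clusters, differed by -0.29, the motor neuron gene *Mnx1* by -0.21, and *Evx2*, which adjoins the *Hoxd* cluster, by -0.10. Of 10 genes that make microRNAs or silence with them, beside *Tnrc6a* itself, 0 lay under 0.05. The Argonaute gene *Ago3* differed by 0.16 without overlap, and *Dgcr8* and *Xpo5*, which process and export microRNA precursors, by 0.11 and -0.11. The paralogs *Tnrc6b* and *Tnrc6c* stood at -0.0033 and -0.09.

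**Figure D5:**
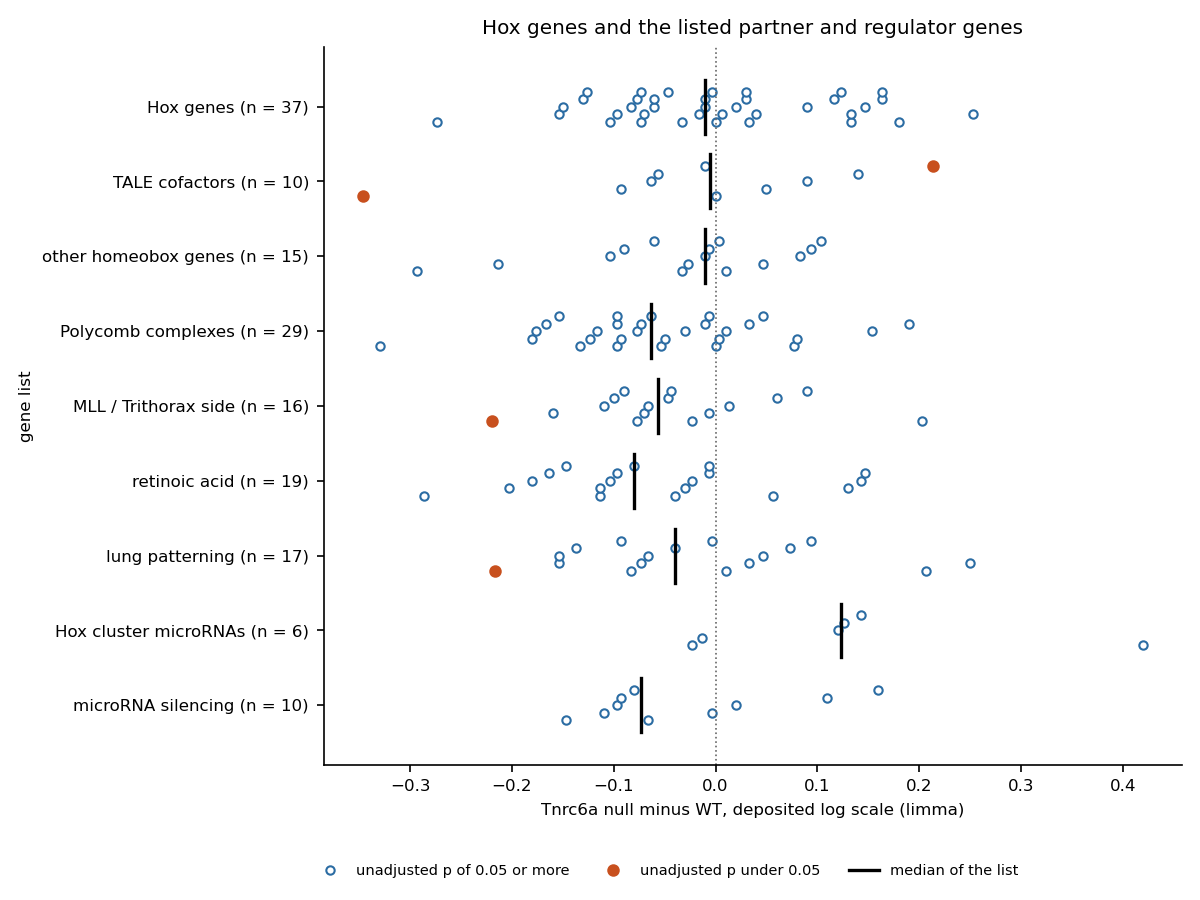
Difference, *Tnrc6a* null minus WT on the deposited log scale (x axis), for the genes of each list (rows), with 1 point per gene, black lines for list medians and filled orange points for an unadjusted p under 0.05 in limma. The 37 Hox genes hold no filled point, and the 122 listed genes hold 4.

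The 6 microRNA genes of the Hox clusters had values for their probe sets, and the mature strands shown above were not measured separately. *Mir10b* read 1.28, 2.22 and 1.69 in WT and 2.36, 2.60 and 1.49 in null lungs. WT replicate 1 and null replicate 3 were again the lowest, and the difference of 0.42 had an interval that included 0 (unadjusted p = 0.256 in limma). *Mir10a*, which shares its seed, differed by -0.02. The genes of the other shared seed differed by 0.13 for *Mir196a-1*, 0.12 for *Mir196a-2* and 0.14 for *Mir196b*, and *Mir615* by -0.01. The median was 0.123, beside 0.132 for the group values by signal, and 5 of the 6 were among the genes below the median signal.

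Other genes in and around the clusters were counted too. Of 32 other genes annotated inside the 4 clusters 10 were measured, the microRNA genes among them, and 0 lay at an unadjusted p under 0.05. Of 40 genes that are the 5 nearest on each side of a cluster 16 were measured, again with 0 under 0.05. Their median differences were 0.0067 inside and 0.013 beside the clusters.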

How the data were processed

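Total RNA of 6 individual E18.5 lungs was hybridised by the authors to Affymetrix Mouse Gene 1.0 ST arrays, and the deposited values are 1 log-scale signal (log2 per the labels) for each of 35045 probe sets and lung. The submitters' notes name MAS5, with no version or settings in the sources read. Values were used as deposited. Of the probe sets, 21789 carried 1 symbol. The brightest stood for a gene, and 21698 were brought to current symbols through GRCm38.p6. The number of arrays limits the precision.

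Genotypes were taken from the labels. Differences were tested over all 19938 genes with limma 3.58.1 in R 4.3.3 (lmFit, eBayes with trend, no covariates, Benjamini-Hochberg adjustment), after the procedure had been tested on simulated data. Python 3.11.15, pandas 2.3.3 and matplotlib 3.10.9 served for counts and plots. Alternatives were quantile normalization, centring, a filter on dim genes, mean probe sets, other moderation, array weights, blocks, the methods' t-test and left-out lungs.

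The members, lists and tests were chosen with earlier results of these data known. Values in each lung were set for paralogs of number 5, members without overlap and the 10 smallest p-values, and 3 genes were named in each other list. Other genes named were chosen after their values were seen.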

Additional observations from a re-analysis of the deposited data

How the results depend on the processing

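No Hox gene passed an adjusted p of 0.05 in any of the 19 other settings. At an unadjusted p under 0.05 the count of 0 became 1 with array weights (*Hoxc12*, with 12.3% of all genes), 1 without WT replicate 1 and null replicate 3 (*Hoxd9*, with 14.5%), and 0 to 1 without any single lung (*Hoxa11* without WT replicate 3). The count of Hox genes without overlap, 1 as reported, was 2 and 3 with quantile normalization over all or over the named probe sets (9.37% and 9.87% of all genes), 0 of 8 above the median signal (12.2%), 1 to 7 without a single lung (5 without WT replicate 2, 7 without WT replicate 3, and 5, 4 and 5 without null replicates 1, 2 and 3, where 15.9% to 24.6% of all genes did not overlap) and 8 without the 2 lungs that were alike (43.6% of all genes). *Hoxc12* was among them wherever it was measured. The median difference over Hox genes stayed within its spread, from -0.0483 to 0.0133 without a single lung, -0.0467 with centring and -0.05 with quantile normalization. *Hoxa5* changed sign, to 0.03 without the 2 lungs, and ranged from -0.1783 to 0.1017 without a single lung, above 0 without null replicate 3 alone. The count of 4 listed partner and regulator genes, 3.28% against 5.42% of all genes, became 11 with centring (9.02% against 6.92%), 11 with the methods' t-test (9.02% against 5.53%) and 22 with a block for the 2 lungs (18.0% against 14.9%), so the listed share was the higher there. It became 15 with array weights (12.3% of both), 1 without trend (0.820% against 4.89%), 13 without the 2 lungs (10.7% against 14.5%), and 2 to 5 without a single lung (2 without WT replicate 2, 1.64% against 3.08%). With the replicate number as a block it was 1 (0.820% against 4.12%), and the Hox counts of 0 did not change. The labels do not say whether the numbers pair the lungs. Same-numbered lungs correlated at -0.295, 0.361 and -0.163 in their deviations from the genotype means. These deviations sum to 0 within a genotype, so the correlations depend on each other and do not settle a pairing. *Tnrc6a* missed the adjusted threshold without WT replicate 3 (adjusted p = 0.0552 in limma) and with the methods' t-test. The cause of these changes was not tested.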
